A study of Homo sapiens with 4 samples.

Results

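The small Cajal body RNAs (scaRNAs), vault RNAs, the RNA subunits of RNase P and RNase MRP, and telomerase RNA are short non-coding RNAs that work inside ribonucleoprotein particles. They were taken here as every gene whose symbol in the platform annotation begins with SCARNA or VTRNA, plus RMRP, RPPH1 and TERC. This gave 30 genes of the 14884 with a named probe set, namely 23 scaRNAs, 4 vault RNAs, 2 RNase RNAs and 1 telomerase RNA, each with a single probe set. Levels were measured on 4 whole-transcript arrays of a human line of colon carcinoma cells, LS411N-5FU-R, derived from the metastatic line LS411N and resistant to the antimetabolite 5-fluorouracil. The control group was 2 arrays of cells without verticillin A (0 nM), and the treated group was 2 arrays of cells that had 50 nM verticillin A, a fungal metabolite, for 3 days. Both groups were the same resistant line, grown in RPMI medium with 10% FBS for the same 3 days, so the comparison asks only what differed in resistant cells with the compound. The labels do not say whether the 2 samples of a group were separate cultures, and the p-values therefore cover the spread between these 2 samples alone, possibly a technical one.

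ScaRNAs guide the chemical modification of the small nuclear RNAs of the spliceosome, and they do so in Cajal bodies, nuclear compartments built around the protein coilin. Those with a C/D box direct methylation of a ribose, those with an H/ACA box direct the conversion of uridine to pseudouridine, and some carry both. Most are cut out of the introns of other genes. Vault RNAs are made by RNA polymerase III and are partly held in the vault, a large cytoplasmic particle. RPPH1 is the RNA of RNase P, which trims the front end of tRNAs, RMRP is the RNA of RNase MRP, which cuts ribosomal RNA precursors, and TERC is the template of telomerase, which lengthens chromosome ends and carries an H/ACA domain that brings it to Cajal bodies.

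Of the 23 scaRNAs, 22 lay inside the span of another gene in the RefSeq table of GRCh38.p14, and SCARNA2 did not. The 3 scaRNAs that passed the test in these data, SCARNA9, SCARNA6 and SCARNA9L, lay in CEP295, a centrosomal protein gene, in ATG16L1, an autophagy gene, and in EIF1AX, a translation initiation factor gene. SCARNA5 lay in ATG16L1 as well. The 250 bases upstream of the annotated start of each of these genes are shown, from RefSeq on build GRCh38.p14 and 5′ to 3′, because an intronic RNA is made from the promoter of the gene that holds it. The RefSeq gene table gives no strand for the small RNAs, so that each is read in the direction of its surrounding gene was not tested. Capitals mark the GC box, searched as GGGCGG, the letters CCAAT of another common promoter element, the core of ETS factor sites, searched as CCGGAA, and the TATA box, searched as TATAAA. All were searched on either strand.
CEP295, chr11:93661432-93661681, + strand: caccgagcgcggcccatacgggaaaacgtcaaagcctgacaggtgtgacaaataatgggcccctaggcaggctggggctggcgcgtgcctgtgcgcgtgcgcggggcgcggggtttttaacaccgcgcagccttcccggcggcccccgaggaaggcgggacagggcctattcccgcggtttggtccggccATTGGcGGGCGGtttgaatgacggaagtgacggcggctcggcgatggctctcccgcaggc
ATG16L1, chr2:233251423-233251672, + strand: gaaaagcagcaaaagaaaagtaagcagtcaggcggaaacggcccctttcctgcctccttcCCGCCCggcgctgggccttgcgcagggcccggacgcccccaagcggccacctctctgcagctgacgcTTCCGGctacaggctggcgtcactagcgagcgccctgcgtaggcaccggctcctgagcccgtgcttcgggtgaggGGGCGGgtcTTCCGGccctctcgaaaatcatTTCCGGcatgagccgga
EIF1AX, chrX:20141839-20142088, - strand: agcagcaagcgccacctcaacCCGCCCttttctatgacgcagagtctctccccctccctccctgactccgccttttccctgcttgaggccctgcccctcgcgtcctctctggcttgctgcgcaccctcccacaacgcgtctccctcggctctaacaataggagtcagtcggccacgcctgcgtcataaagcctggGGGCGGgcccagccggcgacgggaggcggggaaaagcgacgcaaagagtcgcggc

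The GC box letters were in all of these windows, with 1 match upstream of CEP295 and 2 each upstream of ATG16L1 and EIF1AX. Of the 35116 RefSeq windows of the same length, 42.6% held them. The CCAAT letters had 1 match upstream of CEP295, directly beside its GC box, and were in 32.0% of all windows. The ETS core had 3 matches upstream of ATG16L1 and was in 14.5% of all windows, and TATAAA, found in 10.7% of them, had 0 matches in each of the windows shown. None of these motifs overlapped another. The windows had 66.0% to 68.4% G and C, against a median of 58.0% over all windows.

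Across the 4 arrays, the values of all probe sets correlated at r = 0.994 within the control group and 0.995 within the treated group, and at 0.990 to 0.992 between groups. Epithelial markers bore out the label in part. EPCAM, an epithelial adhesion molecule, had log2 levels of 11.11 without and 10.94 with verticillin A, and KRT18, a keratin, had 10.37 and 10.44. CDX1 was at 4.06 and 4.12, KRT20 at 4.61 and 4.67 and CDX2 at 5.19 and 5.38. These 3 lay below 5.84, the median level of the genes. Of the 8 measured markers of colon epithelium, 1 was higher (KRT19) and 1 lower (VIL1) with verticillin A. Of the markers of other cell types, the 2 of fibroblasts lay at 3.42 to 4.62, the 3 of endothelium at 3.53 to 4.47 and the leukocyte genes CD14 and LYZ at 3.67 to 4.63 over the group means, and CD68 was higher in treated cells (7.43 and 8.81).

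All levels are the deposited log2 values, which have nearly the same distribution on every array, so they cannot show whether a cell held more or less RNA in all, and in bulk RNA a change in some of the cells cannot be told apart from a change in all. A change is the treated mean minus the control mean, and a gene is called where limma's p, adjusted by Benjamini and Hochberg over all 14884 genes, was under 0.05. Of the 30 small RNA genes, 4 were called higher and 1 was called lower. Over all genes 8.65% were called, 3.55% higher and 5.10% lower, and of the 2968 genes that are not protein-coding 5.19% were called. The members' share was 16.7%. When the dimmest 50% of genes were left out, it was 21.7% of 23 members against 32.2% of the genes left. The members' share therefore did not stand on the same side of the background under every setting. When every probe set on the array was tested, 0 of 30 members and 0.0914% of all probe sets were called. Calls were then too few to place the members on either side. The ranges of the treated and the control arrays did not overlap in 15 of 30 members, and in 54.8% of all genes they did not. The members' median log2 change was -0.02, and it was -0.01 over all genes.

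**Figure D1:**
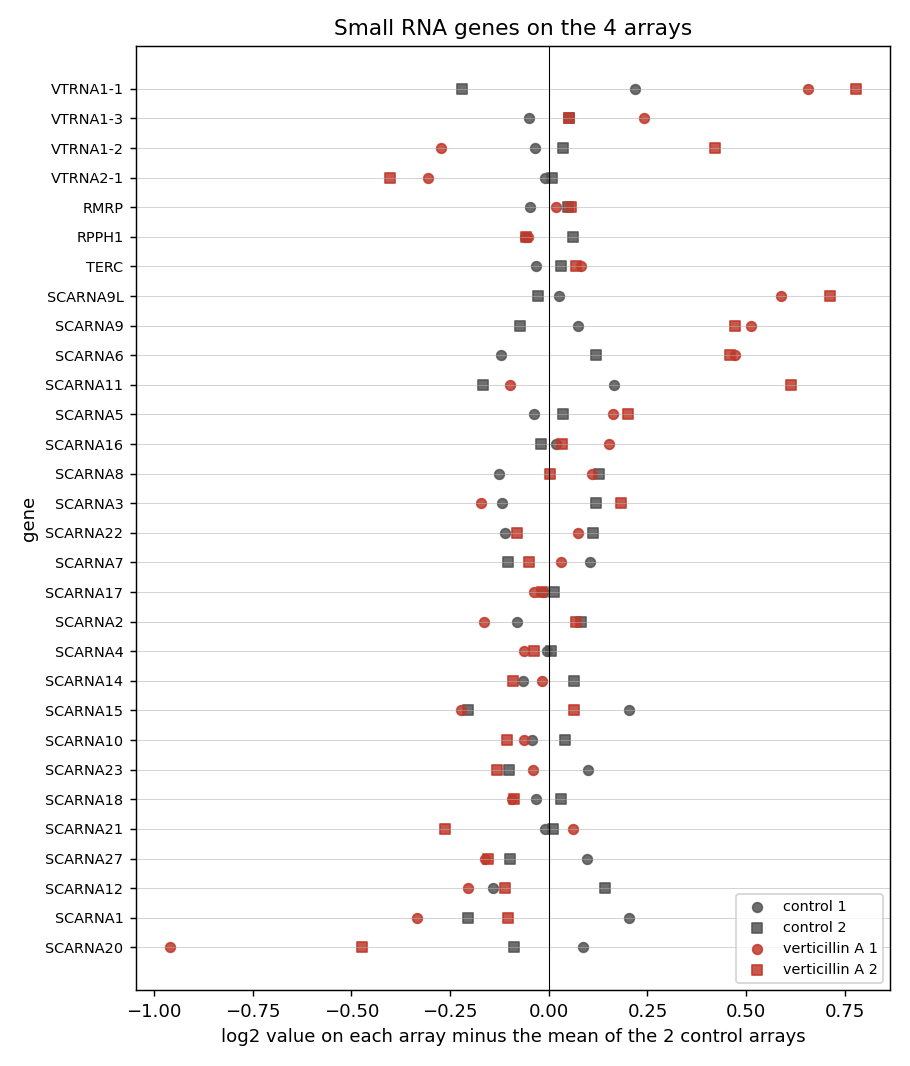
Each row is 1 small RNA gene and each point 1 array, plotted as its log2 value minus the mean of the 2 control arrays (grey, control; red, verticillin A; circles, replicate 1; squares, replicate 2). Both red points of VTRNA1-1, SCARNA9L, SCARNA9 and SCARNA6 lie to the right of both grey points, those of VTRNA2-1 and SCARNA20 lie to the left, and for 15 of the 30 genes the groups overlap.

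The vault RNAs went in both directions. VTRNA1-1, the main RNA of the vault particle, was at log2 levels of 9.82 and 9.38 on the control arrays and 10.26 and 10.38 on the treated arrays. Both treated arrays lay above both control arrays, and the control arrays stood 0.438 apart, the widest gap between controls of any member. VTRNA1-1 rose 1.65-fold (log2 change 0.72 ± 0.15, SE, n = 2 per group, limma adjusted p = 0.0499). This adjusted p lies just under the threshold, and it was 0.0592 after quantile normalization and 0.0543 after centring. Without control replicate 1 the change was 0.94 and without control replicate 2 it was 0.50.

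VTRNA2-1, also known as nc886, is an RNA that is not a stable vault component and that binds and restrains the kinase PKR. It was at 9.67 and 9.69 in control cells and at 9.38 and 9.28 with verticillin A. The control arrays were close together and both treated arrays lay below them. VTRNA2-1 fell 1.28-fold (log2 change -0.35 ± 0.07, SE, n = 2 per group, limma adjusted p = 0.0443). With arrays centred on their medians its change was -0.32, with an adjusted p of 0.0535. VTRNA1-1 and VTRNA2-1 were therefore called in opposite directions, although both are polymerase III transcripts of the vault RNA family.

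The other members of the VTRNA1 group, which lie beside VTRNA1-1 in the RefSeq table, inside the span of the same long non-coding gene, did not pass. VTRNA1-3 was at 7.69 and 7.79 in control cells and at 7.98 and 7.79 with verticillin A. The second treated array was level with the higher control array, and the log2 change was 0.15 (95% interval -0.09 to 0.38, limma adjusted p = 0.396). VTRNA1-2 was at 5.39 and 5.47 in control cells and at 5.16 and 5.85 in treated cells. The treated arrays lay on either side of the controls, 0.695 apart, and the interval of its change ran from -0.48 to 0.63. That VTRNA1-1 changed more than these neighbours was not tested.

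The RNAs of RNase P, RNase MRP and telomerase had changes near 0. RMRP was at 12.03 and 12.13 in control cells and at 12.10 and 12.14 in treated cells. The groups overlapped, and the log2 change was 0.04 with a 95% interval of -0.14 to 0.22 (limma adjusted p = 0.807). RPPH1 was at 5.28 and 5.40 in control cells and at 5.29 and 5.28 in treated cells. The treated arrays lay at the level of the lower control array, and the change was -0.06 (95% interval -0.24 to 0.13, limma adjusted p = 0.715). TERC was at 10.50 and 10.57 in control cells and at 10.62 and 10.60 in treated cells. Both treated arrays lay above both controls, by little, and the change of 0.08 had an interval of -0.10 to 0.25 (limma adjusted p = 0.559). RPPH1 was in the dimmest 50% of genes. How far its signal stood above background was not tested, so its interval may not cover the change of its RNA. A p above the threshold does not show that these 3 RNAs were unchanged.

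Among the 23 scaRNAs, 3 were called higher and 0 lower, a share of 13%, beside 8.65% called over all genes. Of the 23 log2 changes 15 were negative, with a median of -0.05. SCARNA9, a C/D box RNA that guides methylation of U2 snRNA, was at 8.68 and 8.54 in control cells and at 9.12 and 9.08 with verticillin A. Both treated arrays lay well above both controls. SCARNA9 rose 1.41-fold (log2 change 0.49 ± 0.08, SE, n = 2 per group, limma adjusted p = 0.0284). SCARNA9L, a gene named for its likeness to SCARNA9, was at 6.29 and 6.23 in control cells and at 6.85 and 6.97 in treated cells. The groups were again apart, and SCARNA9L rose 1.57-fold (log2 change 0.65 ± 0.08, limma adjusted p = 0.0158), the lowest adjusted p of the 30 members. How far the probes of SCARNA9L also take up SCARNA9 RNA was not tested. All counts of members and scaRNAs here hold both genes, which may not be independent of each other. SCARNA2, the other scaRNA that guides methylation of U2, was at 8.50 and 8.66 in control cells and at 8.41 and 8.65 in treated cells. Its groups overlapped, with a log2 change of -0.05 (95% interval -0.32 to 0.22).

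SCARNA6, a scaRNA also called U88, was at 7.78 and 8.02 in control cells and at 8.37 and 8.36 in treated cells. The treated arrays were nearly equal and lay above both controls, which stood 0.240 apart. SCARNA6 rose 1.38-fold (log2 change 0.47 ± 0.10, SE, n = 2 per group, limma adjusted p = 0.0489). Without control replicate 1 its change was 0.35, and without control replicate 2 it was 0.59. SCARNA5, also called U87, lies in the same gene and was at 9.03 and 9.11 in control cells and at 9.23 and 9.27 in treated cells. Both treated arrays were above both controls, but the change of 0.18 ± 0.07 (SE) did not pass, with an unadjusted limma p of 0.0448 and an adjusted p of 0.175. Over all genes 26.7% had an unadjusted p under 0.05, and 7 of the 30 members did.

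SCARNA20, an H/ACA scaRNA also called ACA66, had the log2 change furthest below 0 of the members and missed the threshold. It was at 5.02 and 4.84 in control cells and at 3.97 and 4.46 in treated cells. Both treated arrays lay below both controls, and they stood 0.485 apart. The log2 change was -0.72 ± 0.17 (SE, n = 2 per group), with a 95% interval of -1.14 to -0.29 and a limma adjusted p of 0.0628. The adjusted p was 0.0232 with a variance trend in limma and 0.0462 without verticillin A replicate 2. It was 0.135 to 0.199 without any 1 of the other arrays. The log2 change was -0.96 without verticillin A replicate 2 and -0.47 without verticillin A replicate 1. SCARNA20 is, like RPPH1, among the 7 members in the dimmest 50% of genes. The others are VTRNA1-2, SCARNA11, SCARNA14, SCARNA15 and SCARNA21.

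The remaining 18 scaRNAs did not pass at an unadjusted p of 0.05 either, and their log2 changes ran from -0.22 to 0.26, of which 4 were positive and 14 negative. The furthest of them from 0 were SCARNA11, SCARNA1, SCARNA12 and SCARNA27. SCARNA11, an H/ACA RNA, was at 4.73 and 4.40 in control cells and at 4.47 and 5.18 in treated cells. The treated arrays were 0.712 apart, the widest gap of any member within the treated group, so that the interval of its change ran from -0.36 to 0.88. SCARNA1, which is also an H/ACA RNA, was at 6.17 and 5.76 in control cells and at 5.63 and 5.86 in treated cells, and its groups overlapped. SCARNA12, also called U89, was at 10.62 and 10.90 in control cells and at 10.56 and 10.65 in treated cells, with a log2 change of -0.16 (95% interval -0.44 to 0.12). SCARNA27 was at 7.90 and 7.71 in control cells and at 7.64 and 7.65 in treated cells. Its treated arrays both lay below the controls, and its change was -0.16 (95% interval -0.38 to 0.06). With each array left out in turn the change of SCARNA1 ran from -0.42 to -0.015, that of SCARNA12 from -0.30 to -0.016 and that of SCARNA27 from -0.26 to -0.060.

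Some scaRNAs, SCARNA4, SCARNA17 and SCARNA10 among them, were measured closely and differed little between groups. SCARNA4, an H/ACA RNA, was at 12.04 and 12.05 in control cells and at 11.98 and 12.01 in treated cells. Its change of -0.05 had an interval of -0.22 to 0.11. SCARNA17, a scaRNA also called U91, was at 9.47 and 9.50 in control cells and at 9.45 and 9.47 in treated cells, with a change of -0.03 (95% interval -0.19 to 0.14). SCARNA10, also called U85, which guides both kinds of modification on U5 snRNA, was at 9.47 and 9.56 in control cells and at 9.45 and 9.41 in treated cells. Its change was -0.08 (95% interval -0.26 to 0.09). SCARNA18 had a change of -0.09 and SCARNA16 one of 0.09, both with non-overlapping groups and neither past the test. For SCARNA7, also called U90, SCARNA22, an H/ACA RNA within the histone methyltransferase gene NSD2, and SCARNA3 the changes were -0.01, -0.003 and 0.01. Their 95% intervals were -0.25 to 0.23, -0.27 to 0.26 and -0.36 to 0.37, each wider than that of SCARNA4. SCARNA8, SCARNA14, SCARNA15, SCARNA21 and SCARNA23 had changes of 0.06, -0.05, -0.08, -0.10 and -0.08, with overlapping groups in each. Their 95% intervals were -0.21 to 0.32, -0.25 to 0.15, -0.49 to 0.34, -0.40 to 0.20 and -0.32 to 0.15. These too were wider than that of SCARNA4, so larger changes in these RNAs could have been missed.

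**Figure D2:**
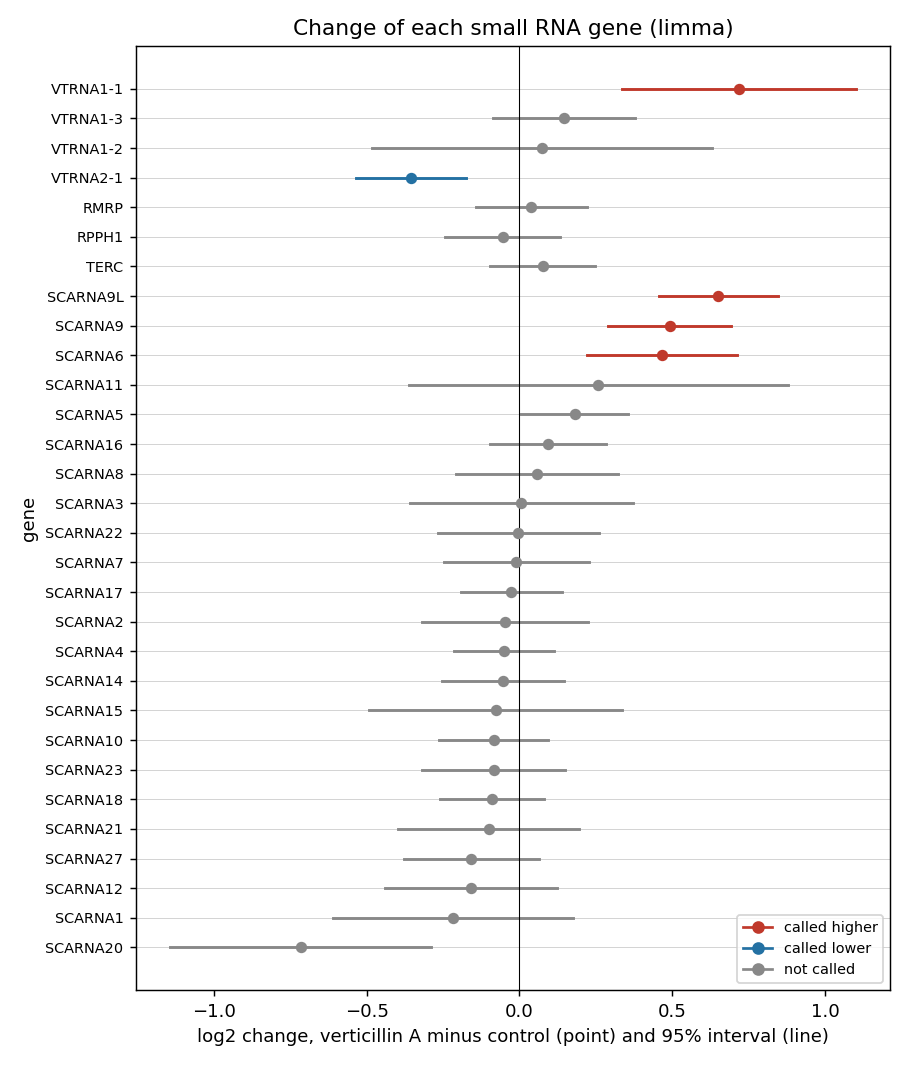
Each row is 1 small RNA gene, with its log2 change (verticillin A minus control) as a point and limma's 95% interval as a line, coloured by the call at an adjusted p under 0.05. VTRNA1-1, SCARNA9L, SCARNA9 and SCARNA6 are called higher and VTRNA2-1 lower, SCARNA20 lies at -0.72 with a wide interval, and RMRP, RPPH1 and TERC lie close to 0.

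Grouped by the older names that RefSeq lists, the 9 scaRNAs with ACA names, which are H/ACA RNAs of 125 to 187 bases, held 0 calls in limma and 1 unadjusted p under 0.05 (SCARNA20), with a median log2 change of -0.08. The 9 with U names held 1 call, SCARNA6, and a median of -0.03. By length, a division chosen after the values were seen, the 3 rises, SCARNA9L among them, fell among the 9 scaRNAs of at least 250 bases, and the 14 shorter ones held 0, beside 8.65% called over all genes. All of the 9 longer scaRNAs and 9 of the 14 shorter ones were in the brighter 50% of genes. When the brighter genes were tested alone, 32.2% of them were called. The scaRNAs called there were the same 3, so the count among the longer ones is near that background. The control arrays of the shorter ones differed by a median of 0.198 and those of the longer ones by 0.147, against 0.0972 over all genes. For the treated arrays these medians were 0.137, 0.0435 and 0.0781. Over genes that are not protein-coding they were 0.125 for control and 0.107 for treated arrays. The shorter scaRNAs thus had more spread than genes in general in both groups, and the longer ones in the control group alone. What the spread and the dim signal contribute to the lack of calls among short scaRNAs was not tested.

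The genes around the scaRNAs were set beside them. Of the 22 scaRNAs inside another gene, 13 lay in a gene that was also measured, and these were 12 genes. Of the 12, 0 were called in limma, beside 8.65% over all genes. So few genes cannot place this count on either side of that share. The signs of the 2 changes were alike in 5 of the 13 pairs and opposite in 8, but many of these changes were near 0, and those of SCARNA22 and SCARNA7, counted as opposite, turned positive after centring and after quantile normalization. The tally therefore shows neither that the scaRNAs moved with these genes nor that they did not. ATG16L1, which holds SCARNA5 and SCARNA6, was at 7.98 in control and 8.35 in treated cells, a log2 change of 0.37 ± 0.10 (SE) with a limma adjusted p of 0.0805. Beside it SCARNA6 had a change of 0.47 and SCARNA5 one of 0.18, all with the same sign. CEP295, which holds SCARNA9, had a change of 0.19 ± 0.07 (limma adjusted p = 0.177) beside 0.49 for SCARNA9. The opposite signs included SCARNA11 (0.26) within the chromatin remodeller gene CHD4 (-0.24) and SCARNA16 (0.09) within the small nucleolar RNA host gene SNHG20 (-0.30). Without verticillin A replicate 2 the change of SCARNA11, one of the dimmer members, was -0.10, the sign of CHD4. EIF1AX and USP32, which hold SCARNA9L and SCARNA20, were not analysed here. The spans of CHD4-AS1, SEC14L1 and SNHG21, not analysed here, also hold SCARNA11, SCARNA16 and SCARNA15, the last of which was paired with FSD2.

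**Figure D3:**
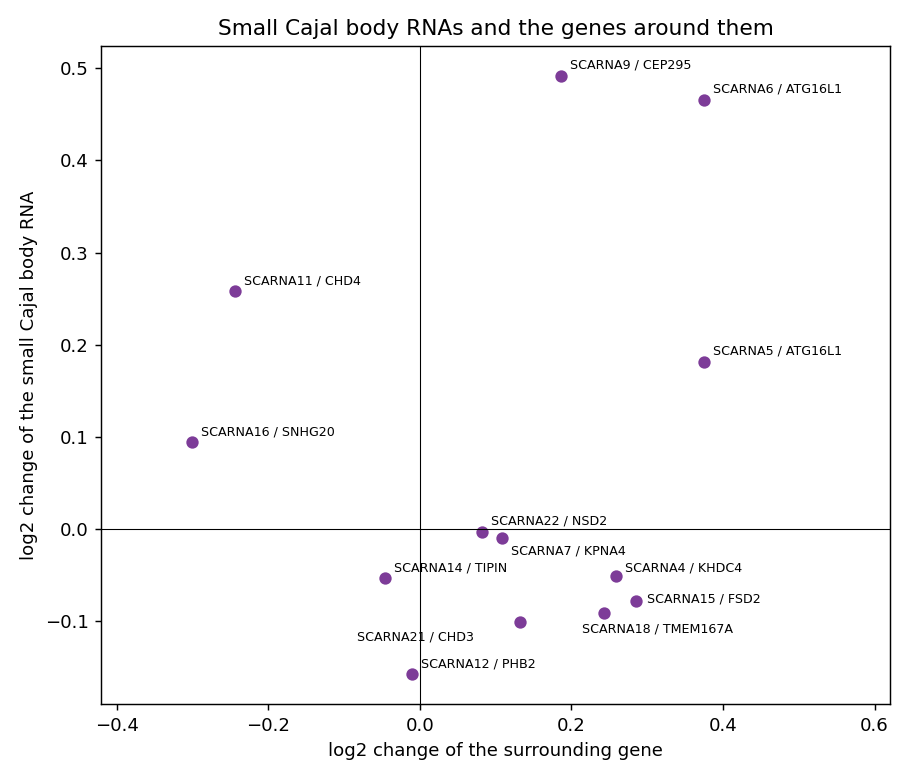
Each point is a scaRNA and a measured gene whose span holds it, with the log2 change of the surrounding gene on the x axis and that of the scaRNA on the y axis (verticillin A minus control, 13 pairs on the same 4 arrays). SCARNA6, SCARNA5 and SCARNA9 lie in the upper right with ATG16L1 and CEP295, and 8 of the 13 points lie in the quadrants where the signs differ.

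Genes linked to these RNAs were read from the same fit, as lists described by their counts. They are called partner genes here, though not all encode proteins that bind these RNAs. Among 21 measured genes of H/ACA, telomerase and Cajal body proteins, 4 rose and 0 fell, with a median log2 change of 0.12 against -0.01 over all genes. The called share was 19%, beside 8.65% over all genes. All 21 were in the brighter 50% of genes, of which 32.2% were called when tested alone. That is a separate adjustment, in which this list was not counted. Whether the count stands apart from that of other bright genes was not tested. GEMIN4, a component of the SMN complex, rose 1.37-fold, and NHP2, a core protein of every H/ACA particle, rose 1.31-fold (log2 level 8.62 ± 0.05 to 9.02 ± 0.01, SD, n = 2 per group, limma adjusted p = 0.0324). ELL, an elongation factor of the little elongation complex, rose 1.27-fold, and COIL, which encodes coilin, rose 1.24-fold (9.15 ± 0.01 to 9.46 ± 0.02, limma adjusted p = 0.0471). TERT, the protein partner of TERC, named outside the rule, had a log2 change of 0.20 ± 0.07 (SE, limma adjusted p = 0.159). Of the 3 measured C/D box proteins 0 passed in limma, with 0 at an unadjusted p under 0.05, and the methyltransferase FBL and SNU13 had changes of 0.04 ± 0.07 and -0.11 ± 0.10.

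MVP, the major vault protein that forms the shell of the particle, was the only called gene of 5 measured vault proteins and vault RNA partners. It was at 6.41 and 6.40 in control cells and at 6.85 and 6.94 in treated cells. Both treated arrays lay above both controls, and MVP rose 1.41-fold (log2 change 0.49 ± 0.07, SE, limma adjusted p = 0.0227). This is the direction of VTRNA1-1 and the opposite of that of VTRNA2-1. The median log2 change of the 5 genes was 0.08. Whether MVP and the vault RNAs changed together was not tested. Of the 7 measured protein subunits of RNase P and RNase MRP 0 passed in limma, with 1 at an unadjusted p under 0.05 (RPP30, 0.20 ± 0.07), and their median change was 0.10. RPP21 had a change of 0.16 ± 0.08. Of 7 genes of shelterin and the telomere end 0 passed, with 3 at an unadjusted p under 0.05 and a median of -0.14. For comparison with these short lists, 8.65% of all genes were called and 26.7% had an unadjusted p under 0.05. STN1 (-0.28 ± 0.08) and TERF2 (-0.24 ± 0.07), which bind telomere ends and telomere repeats, had limma adjusted p of 0.0861 and 0.0879. With the dimmest 50% of genes left out both were under the threshold (0.027 and 0.0252).

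RNA polymerase III, which transcribes the vault RNAs, RMRP and RPPH1, had subunits that went both ways. Of 10 measured genes of the enzyme and its factors, all in the brighter 50% of genes, 1 rose and 2 fell, beside 8.65% called over all genes. The 32.2% called among brighter genes tested alone comes from a separate adjustment, in which this list was not counted. An unadjusted p under 0.05 was found for 7 of the 10, beside 26.7% over all genes. Whether these counts stand apart from those of other bright genes was not tested. POLR3G, a subunit typical of proliferating and stem cells, was at 10.13 and 10.14 in control cells and at 10.55 and 10.48 in treated cells and rose 1.30-fold (limma adjusted p = 0.0347). Its alternative subunit POLR3GL was at 6.54 and 6.52 in control cells and at 6.12 and 6.13 in treated cells and fell 1.32-fold (limma adjusted p = 0.0283). On every array of the treated group POLR3G was above, and POLR3GL below, both of its own control values. POLR3B, the second largest subunit, fell 1.26-fold (limma adjusted p = 0.0472), a call that was not kept after centring (adjusted p = 0.0507). Of 13 genes of the Integrator complex and snRNA 3′ processing 0 passed in limma, with 1 at an unadjusted p under 0.05, and INTS7 and INTS4 had changes of -0.18 ± 0.07 and 0.18 ± 0.07.

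**Figure D4:**
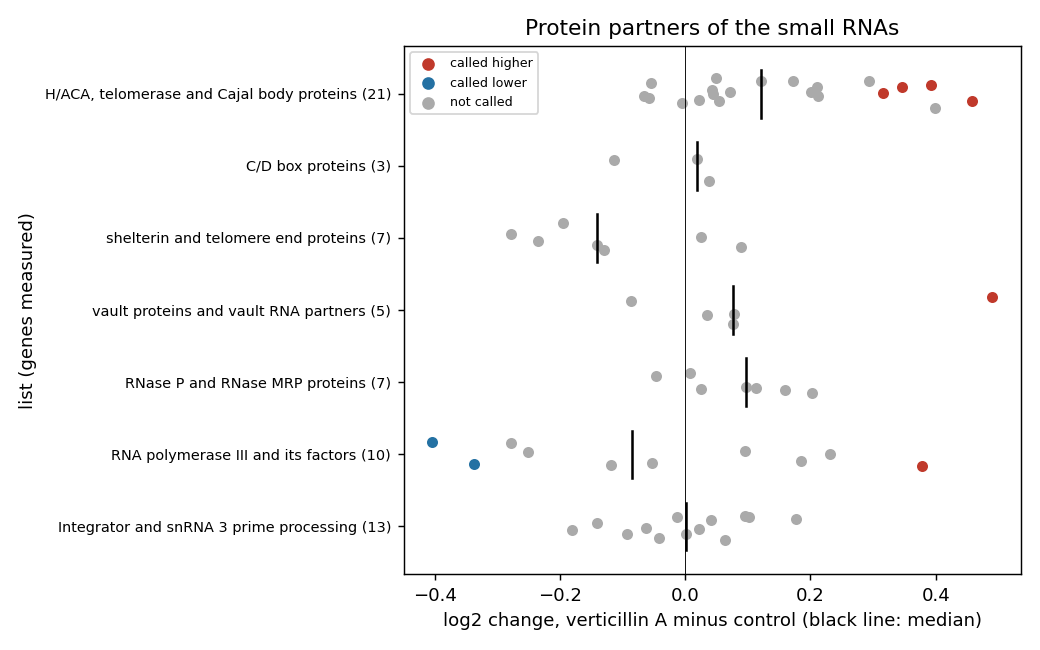
Each point is 1 measured gene of a list of partner genes, not all of which encode proteins that bind the small RNAs. The x axis is its log2 change (verticillin A minus control), the colour its call at a limma adjusted p under 0.05. A black line marks the median of the list. MVP stands alone at 0.49 among the vault proteins, the 4 called genes of the Cajal body list lie between 0.32 and 0.46, and POLR3G and POLR3GL lie at 0.38 and -0.40 in the polymerase III list.

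The calls rest on the full set of 4 arrays. Leaving out any 1 array, which also leaves 1 residual degree of freedom, ended the calls of all 5 members in limma. The lowest adjusted p among them was then 0.0579 (SCARNA9L), and over all genes 0 to 153 were called. With every array left out in turn the log2 change of SCARNA9L ran from 0.59 to 0.71, that of SCARNA9 from 0.42 to 0.57, that of SCARNA6 from 0.35 to 0.59, that of VTRNA1-1 from 0.50 to 0.94 and that of VTRNA2-1 from -0.40 to -0.31. The calls of the partner genes named above ended in the same way. With every probe set of the array tested in place of 1 per named gene, 0 of the 30 members passed in limma, with 6 at an unadjusted p under 0.05. Of all 53617 probe sets, 49 passed, and 8805 had an unadjusted p under 0.05.

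**Figure D5:**
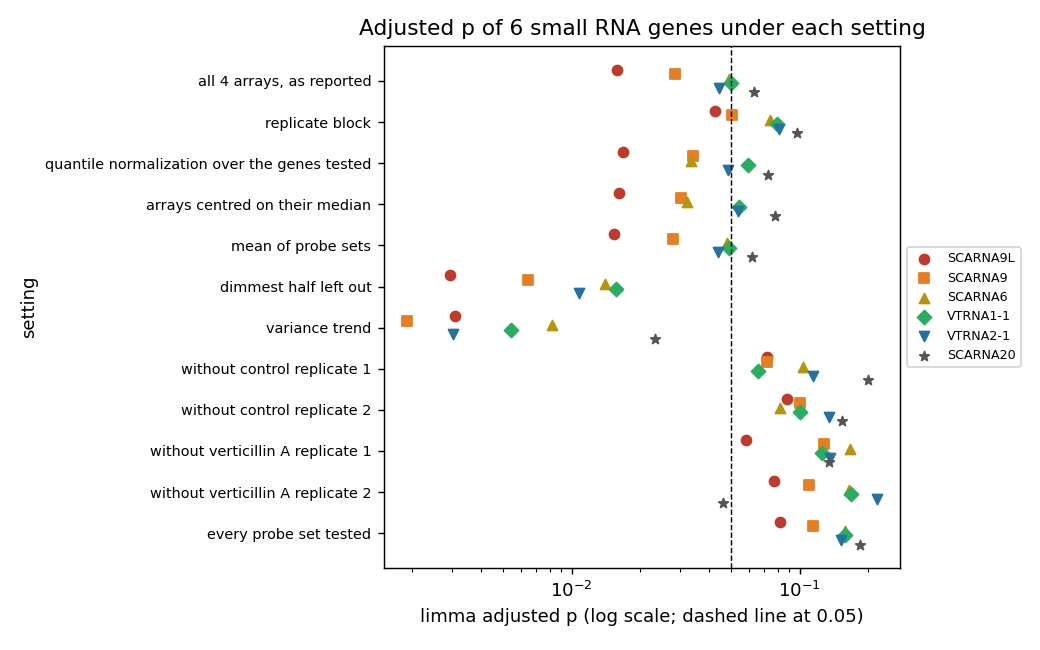
Each row is a setting of the analysis and each point the limma adjusted p, on a log scale, of 1 of 6 small RNA genes, with a dashed line at 0.05. The 5 called genes lie left of the line in the top row and right of it in each of the rows that leave out 1 array and in the row that tests every probe set, and SCARNA20 lies left of it only with a variance trend and without verticillin A replicate 2.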

How the data were processed

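RNA of 2 control samples and 2 samples with 50 nM verticillin A was hybridised to whole-transcript arrays, 4 in all, after labelling 250 ng of total RNA. The authors deposited 1 log2 value per probe set and array, made with GCRMA per the submitters' processing notes. The sources used here give no version, build or filter. The log2 scale was read from the range of the values (2.60 to 14.47). How well the labelling takes up RNAs this short was not measured.

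Of 53617 probe sets, the platform annotation names 1 gene for 16098, and all 16098 matched the RefSeq table of GRCh38.p14 by gene identifier. A gene with several probe sets took the one with the highest mean, which left 14884 genes. Control and treated arrays were compared over all of these, with no filter on low values, by limma's lmFit and eBayes (limma 3.58.1 under R 4.3.3, constant prior, 2 residual and 3.43 prior degrees of freedom). The fit was tested on simulated data. The number of arrays limits the precision.

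The members and lists were chosen with earlier results of these data known. All members were named, with every array's value for those at an unadjusted p under 0.05, for the vault RNAs, RMRP, RPPH1, TERC and 4 others with the largest changes, and further values after they were seen. Partner lists gave up to 4 called genes, or 2 where none passed. Surrounding genes were found by position alone, since the table gives no strand for the small RNAs. The families with symbols beginning SNORA, SNORD, RNU, RNY and RN7S, planned beside the members, were not analysed here. The labels do not say whether same-numbered arrays were paired. Such arrays did not deviate together (r = 0.01 over genes), so the replicate number was not taken as a pairing, though 2 arrays per group cannot settle this.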

Additional observations from a re-analysis of the deposited data

How the results depend on the processing

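Of 55 alternative values of the 5 called members, 32 missed the threshold and 0 changed sign. The cause was not tested except that leaving out arrays leaves fewer samples and testing every probe set adjusts over more features. With the replicate number as a block (replicate block), limma called 1 member higher (SCARNA9L) and 0 lower, and 228 genes higher and 364 lower over all. The log2 changes of the called members were the same with the block as without it. The labels do not say whether same-numbered arrays were paired, so whether this setting is the better one was not tested. With every probe set tested, 0 members were called higher and 0 lower, and 20 probe sets higher and 29 lower. Centring left 3 members higher and 0 lower, and over all genes 750 higher and 668 lower against 528 and 759 as deposited, so the split between directions depends on centring. A variance trend gave 4 members higher and 2 lower, and 1067 genes higher and 1361 lower. Without the dimmest 50% of genes 1070 were higher and 1329 lower. When each array was left out in turn, 0 members were called higher (0 to 0) and 0 to 1 lower, the one being SCARNA20, and over all genes 0 to 52 higher and 0 to 105 lower.

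Changes of uncalled members turned sign in places, most of them near 0 in the full data, with SCARNA11 (0.26) the furthest from it. SCARNA22 and SCARNA7 went to 0.041 and 0.0043 after quantile normalization and to 0.036 and 0.029 after centring, and SCARNA17 to 0.012 after centring. With 1 array left out in turn, changes ran from -0.0096 to 0.086 for RMRP, -0.12 to 0.0059 for RPPH1, -0.27 to 0.42 for VTRNA1-2, -0.10 to 0.61 for SCARNA11, -0.12 to 0.011 for SCARNA14, -0.28 to 0.13 for SCARNA15, -0.16 to 0.068 for SCARNA2, -0.26 to 0.060 for SCARNA21, -0.11 to 0.11 for SCARNA22, -0.18 to 0.015 for SCARNA23, -0.17 to 0.18 for SCARNA3, -0.11 to 0.094 for SCARNA7 and -0.069 to 0.18 for SCARNA8. Of the named partner genes 0 changed sign. Signal near background, which was not tested, may limit the 7 members in the dimmer 50% of genes.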
